A study of Mus musculus with 6 samples.

Results

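Interferon response genes were taken from the deposited expression table by name: the interferon receptor chains, the STAT and IRF transcription factors and the families of antiviral effectors that carry the prefixes Ifi, Ifit, Isg, Oas, Mx, Gbp, Irgm and Iigp. The rule found 76 of the 23361 genes in the table. The genes were measured by RNA-sequencing of taste cells isolated from the circumvallate and foliate papillae, tongue structures that hold many taste buds, of C57BL/6 mice that received no treatment. There were 3 libraries at 2 months of age, each from pooled cells of 4 mice, and 3 libraries at 6 months, each from pooled cells of 3 mice. The sample labels give 2 and 6 months, while the design text once names 3 and 6 months. The table holds 1 value per age, the authors' FPKM (fragment counts scaled by transcript length and library size) over the 3 libraries, so no SD and no test between the ages can be given. FPKM keeps no record of sequencing depth, so the depth is unknown. Unless an age is named, paired values below stand in the order 2 months, then 6 months.

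Interferons are secreted proteins that warn neighbouring cells of infection. Type I interferons bind the Ifnar1 and Ifnar2 chains and type II interferon binds Ifngr1 and Ifngr2, after which Janus kinases phosphorylate STAT proteins. A complex of STAT proteins with Irf9 binds the interferon-stimulated response element (ISRE), and pairs of STAT proteins bind the gamma-activated site (GAS). The genes switched on in this way encode proteins that sense, degrade or trap viral and microbial material. Taste bud cells are known to carry interferon receptors and to respond to interferon.

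The response elements can be seen in the DNA before the start sites of several of these genes, and the stretches below are shown because they cover the main effector classes and the signal carriers. RefSeq promoter sequences of GRCm38.p6 were matched to 57 of the 76 genes. The 250 bases before each annotated start were searched on both strands for the repeated core of the ISRE, a pair of GAAA words with any 2 bases between them, and for TTCNNNGAA, the core of the GAS, which reads the same on either strand. Capitals mark the letters of the matches, overlapping matches are merged, and each stretch is written 5′ to 3′ along the gene. An ISRE match on the opposite strand therefore appears as a pair of TTTC words.
Isg15, chr4:156200855-156200916, minus strand: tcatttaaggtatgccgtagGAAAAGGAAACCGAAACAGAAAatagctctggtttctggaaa
Ifit1, chr19:34640765-34640833, plus strand: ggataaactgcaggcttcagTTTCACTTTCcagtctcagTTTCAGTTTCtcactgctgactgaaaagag
Oas1a, chr5:120907526-120907565, minus strand: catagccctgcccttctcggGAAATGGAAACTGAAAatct
Ifitm2, chr7:140955978-140956027, minus strand: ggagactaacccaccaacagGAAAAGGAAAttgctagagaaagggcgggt
Gbp2, chr3:142620584-142620633, plus strand: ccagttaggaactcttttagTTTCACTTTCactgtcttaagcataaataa
Irgm1, chr11:48871421-48871470, minus strand: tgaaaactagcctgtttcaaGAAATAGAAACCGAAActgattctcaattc
Stat2, chr10:128270256-128270305, plus strand: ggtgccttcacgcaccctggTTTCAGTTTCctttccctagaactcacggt
The same search gave GAS cores before Irf1 and Ifi202b.
Irf1, chr11:53769904-53769952, plus strand: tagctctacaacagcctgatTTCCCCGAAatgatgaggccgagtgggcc
Ifi202b, chr1:173982964-173983012, minus strand: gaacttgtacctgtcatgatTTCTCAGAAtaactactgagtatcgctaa

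The ISRE core stood before 20 of the 57 genes, or in 28.6% of their 70 promoter windows, against 2.98% of all 32851 windows of the reference. The GAS core stood before 13 of the 57 genes, in 18.6% of their windows, against 7.02% of all windows. Both cores stood before 5 genes and at least one of them before 28. Many of these genes received their names because interferon induces them, so the shares describe the genes and are not a test, and a match of letters is not a shown binding site. Of the 29 ISRE matches, 19 lay within 100 bases of the start, and 8 genes had more than 1 match. The Isg15 stretch had 3 overlapping matches in 1 run.

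**Figure D1:**
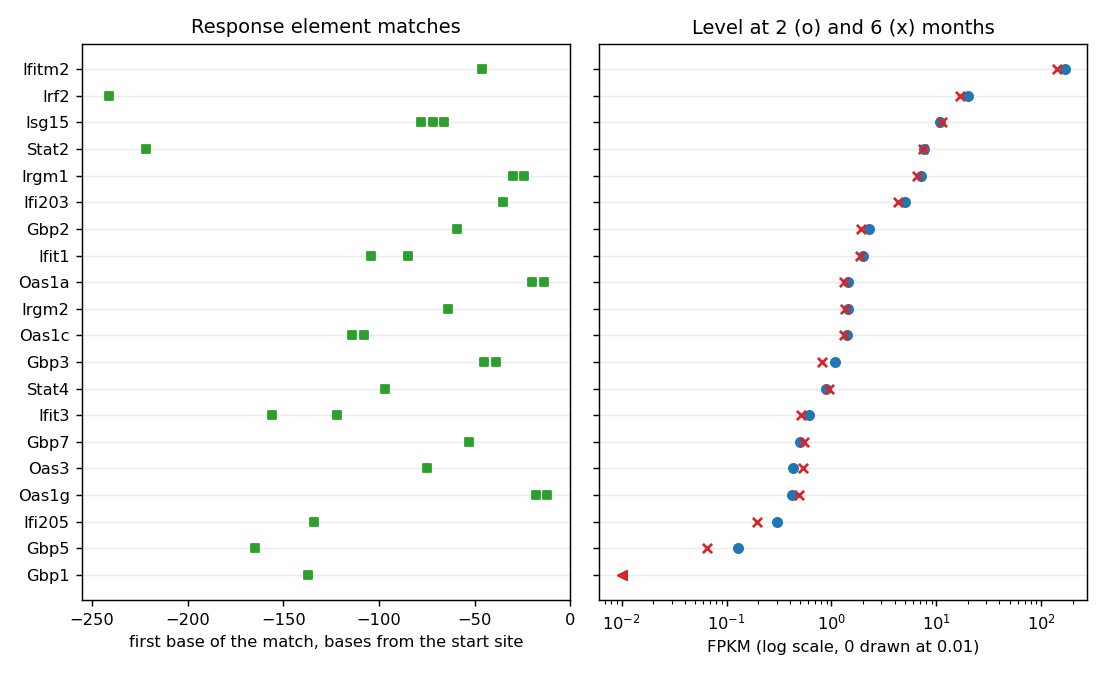
Left, position of each ISRE core match (first base, in bases from the annotated start site) before the 20 genes that held one. Right, the FPKM of the same genes on a log axis at 2 months (circles) and 6 months (crosses), with Gbp1, listed at 0 at both ages, drawn as a triangle at 0.01. Levels ran from 0 to 169 FPKM at 2 months, and the values of the 2 ages lie close together for the genes above 1 FPKM.

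A mean of at least 1 FPKM over the ages was reached by 46 of the 76 genes (60.5%), against 54.2% of all genes in the table. The other 30 were weaker: 19 lay between 0.1 and 1 FPKM, 8 lay below 0.1 FPKM and 3 (Gbp1, Ifi27l2b and Ifi44l) were listed at 0 at both ages. A listed 0 need not mean that a gene was silent, since the keratin gene Krt4 was listed at 7334 FPKM at 2 months and at 0 at 6 months, and Krt6a at 0 and 3391 FPKM. The values of all members summed to 1352 and 1279 FPKM, which was 0.194% and 0.192% of the whole table.

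**Figure D2:**
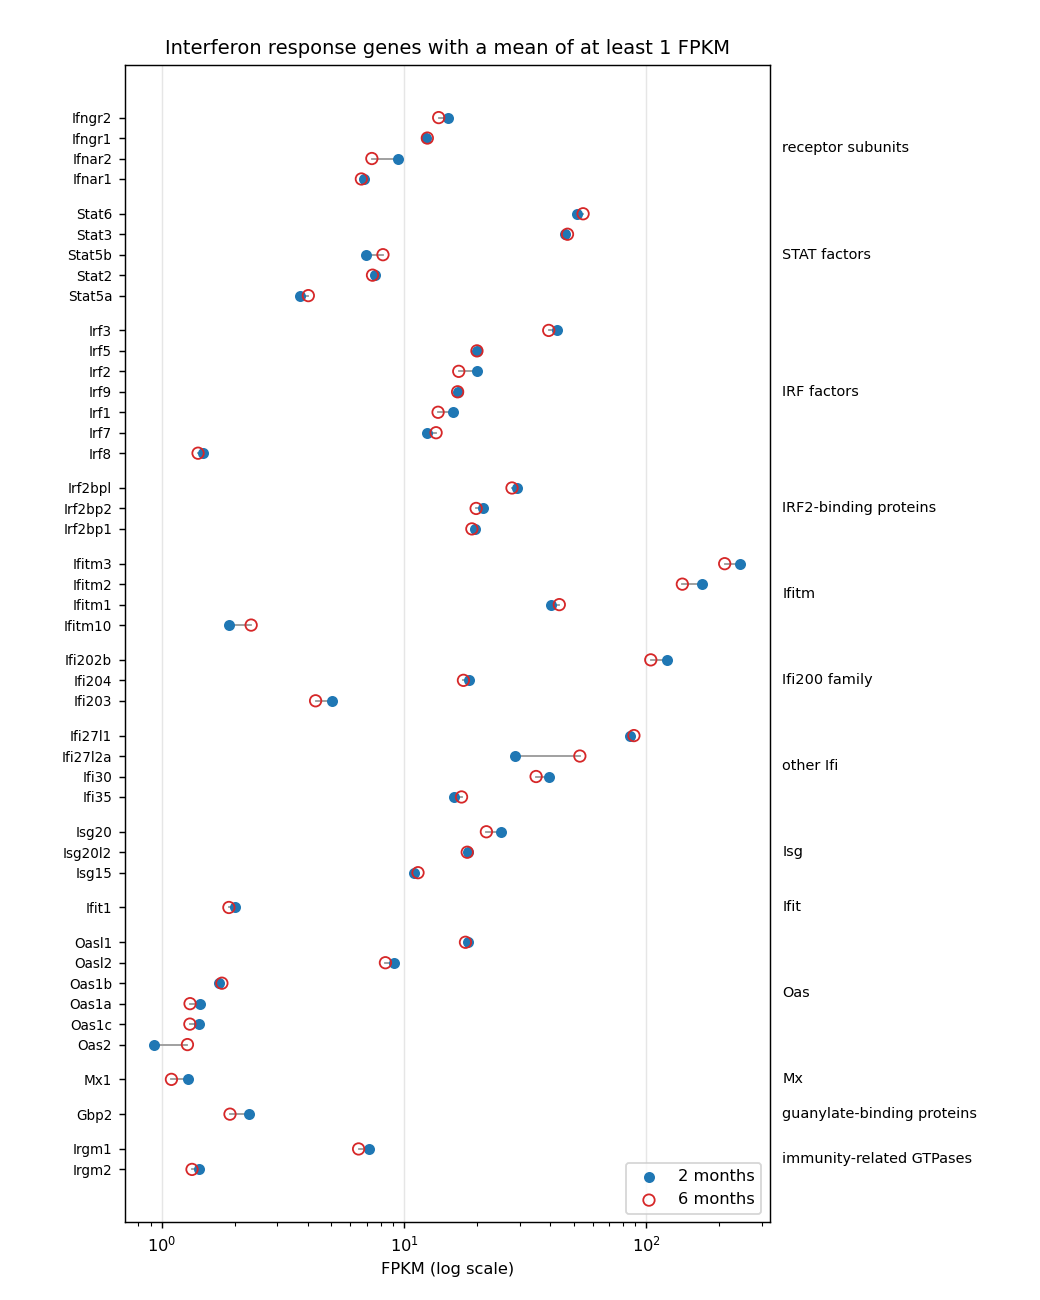
FPKM on a log axis of 44 interferon response genes with a mean of 1 FPKM or more, at 2 months (filled circles) and 6 months (open circles), grouped by role. The circles lie farthest apart for Ifi27l2a, which stood at 28.7 and 53.1 FPKM.

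Between the ages, 1 of these 46 genes, Ifi27l2a, was higher at 6 months by 1.5-fold or more. Folds and log2 changes were taken on log2(FPKM + 1), which understates differences of weak genes. A difference of that size was seen in 1.05% of the 12652 genes whose mean reached 1 FPKM. None of the 46 was lower by at least 1.5-fold, against 1.72% of all such genes, and none was past 2-fold either way, against 1.6%. With the limit at a 25% difference on the same FPKM + 1 scale, Ifi27l2a was again the 1 gene past it, against 7.18% of all genes. As plain FPKM ratios, a choice made after seeing the data, 3 of the 46 were past 25%, namely Ifi27l2a, Oas2 and Ifnar2, against 10.6% of all genes. When microRNA genes, small nucleolar RNA genes and all genes listed at 0 at an age were left out, the shares over all genes were 0.435% higher and 1.17% lower by at least 1.5-fold, and 5.88% past the 25% limit. Nothing particular to the interferon response genes can be read from such small counts. The median log2 change of the 46 genes was -0.05, with quartiles of -0.12 and 0.04, beside a median of -0.01 and quartiles of -0.10 and 0.08 over all genes.

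The lower value was at 6 months for 31 of the 46 genes, against 53.7% of all genes. The count depends on the scale factor between the ages, which moves all genes alike. It was 29 of 46 with the upper quartiles made equal and again with the median of all genes set to 0. When both ages were given the same sum of FPKM after microRNA and small nucleolar RNA genes were set aside, it was 18 of 46, and the median was 0.029 beside 0.07 over all genes. The difference between these medians was not tested. The share of all genes lower at 6 months was not counted under these scalings, so the counts of 29 and 18 have no share to stand beside.

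**Figure D3:**
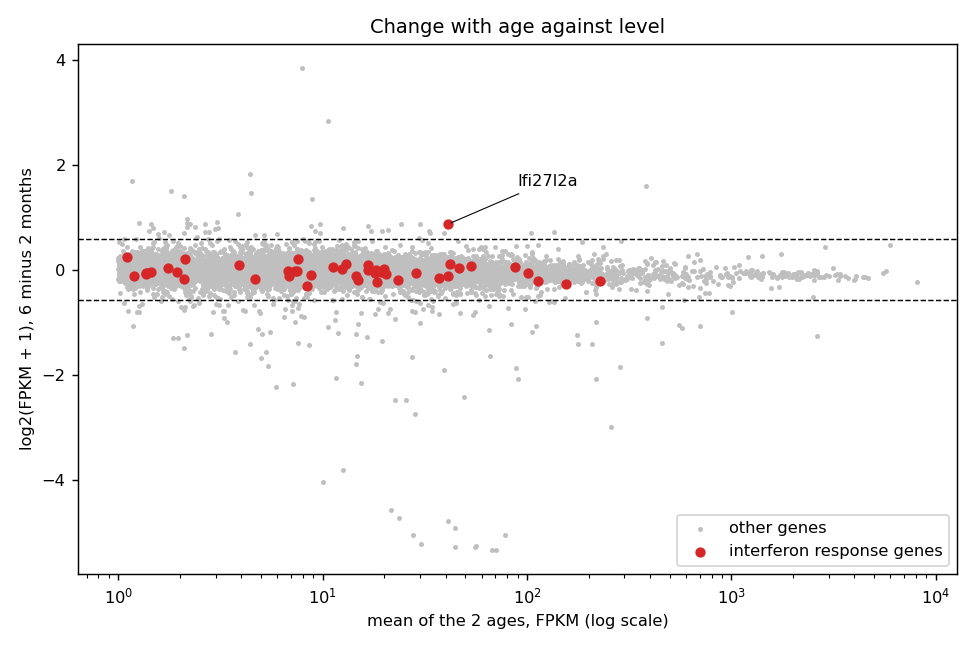
Difference of log2(FPKM + 1), 6 minus 2 months, against the mean FPKM of the 2 ages on a log axis, for genes with a mean of 1 FPKM or more that were above 0 at both ages, without microRNA and small nucleolar RNAs. Red points are the 46 interferon response genes, grey points the other genes, and dashed lines mark 1.5-fold. All red points but Ifi27l2a lie between the lines.

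The 4 receptor chains were all present at moderate levels. Ifnar1 had 6.83 and 6.66 FPKM. Ifnar2, its partner in the type I receptor, had 9.41 and 7.36 FPKM, a log2 change of -0.32 and one of the 5 largest falls of any member. For the type II receptor, the values were 12.3 and 12.5 FPKM for Ifngr1 and 15.1 and 13.9 FPKM for Ifngr2. The type II chains thus stood above the type I chains at either age, an order without an error. Ifnar2, Ifnar1 and Ifngr2 lie in 1 cluster on chromosome 16 of GRCm38, from 91372783 to 91564007.

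Among the STAT factors, which carry the signal from receptor to nucleus, high values were found for factors that chiefly serve other cytokines. Stat6, which interleukin-4 receptors use, had 51.9 and 54.8 FPKM. Stat3, used by the interleukin-6 family, had 46.0 and 47.2 FPKM. Stat2, a transducer of the type I interferon signal, was several times lower, with 7.61 and 7.41 FPKM. Stat5b, which growth hormone receptors use, went from 6.98 to 8.18 FPKM (log2 change 0.20), and Stat5a from 3.73 to 4.03 FPKM. These 2 genes are near copies, and 11.0% of the 50-base words in Stat5b transcripts also occur in Stat5a. Stat4, a factor of lymphocytes, was at 0.891 and 0.951 FPKM.

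The IRF factors bind the same kind of DNA element, and 8 of 9 reached a mean of 1 FPKM. Irf3, a factor that switches on interferon genes, had 42.9 and 39.5 FPKM. Irf9, the DNA-binding partner of STAT proteins, was at 16.6 FPKM at either age. Irf7, which interferon itself induces and which amplifies the response, had 12.5 and 13.6 FPKM. The opposed pair Irf1, an activator, and Irf2, its competitor, had log2 changes of -0.20 and -0.23, from 16.0 to 13.8 FPKM and from 19.9 to 16.8 FPKM. Irf5, a factor of inflammatory signalling, was at 19.9 and 20.0 FPKM, although 11.0% of its 50-base words are shared with the neighbouring gene Tnpo3. The factors of blood cells were low: Irf8, of myeloid cells, had 1.48 and 1.41 FPKM and Irf4, of lymphocytes, 0.0748 and 0.123 FPKM. Irf2bp1, Irf2bp2 and Irf2bpl, taken in through the start of their names, encode partners of Irf2 and not members of its family, and they had 19.7, 21.2 and 29.2 FPKM in the younger mice and 19.0, 19.8 and 27.9 FPKM in the older.

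The Ifitm genes encode small membrane proteins that keep enveloped viruses from fusing with the cell. Ifitm3 was the highest of all 76 genes, with 244 and 210 FPKM, a log2 change of -0.21. Ifitm2 followed with 169 and 141 FPKM, a log2 change of -0.27, and Ifitm1 with 40.5 and 43.7 FPKM. The remaining members were weak. Ifitm10 had 1.89 and 2.34 FPKM, and Ifitm6 went from 0.732 to 0.383 FPKM (log2 change -0.32), the largest fall of any member with the pseudocount of 1. With a pseudocount of 0.1 it had -0.78, behind Ifitm7 at -0.89. In the cluster on chromosome 7, from 140948958 to 141266499, Ifitm2 and Ifitm3 share at most 5.56% of their 50-base words with other genes.

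The Ifi200 genes encode nuclear and cytosolic proteins that bind DNA. Ifi202b, whose expression is known to differ between inbred strains, was at 121 and 104 FPKM. No 50-base word of its transcripts occurs in another gene of the table. Ifi204 had 18.5 and 17.6 FPKM and Ifi203 had 5.02 and 4.31 FPKM. The genes lie together on chromosome 1 from 173747293 to 174031755. All 3 had the lower value at 6 months, though by less than the 25% limit. Of all genes, 53.7% were lower at 6 months.

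Ifi27l2a had the largest log2 change of any member. It encodes a small hydrophobic protein of the interferon alpha-inducible 27 family, and it went from 28.7 to 53.1 FPKM, a plain ratio of 1.85 and a log2 change of 0.86 on the FPKM + 1 scale. Among 12425 genes, with the same genes left out as above, 20 had a change at least as high, Ifi27l2a included. The gene lies on chromosome 12 of GRCm38, from 103433873 to 103443680 in RefSeq. That span covers its neighbour Ifi27, named Ifi27l1 in the table, whereas GENCODE places Ifi27l2a from 103442167 to 103443680 on the minus strand, clear of Ifi27 on the plus strand. Reads were mapped with default settings, which take the library as unstranded, so reads from overlapping genes on opposite strands cannot be told apart. Ifi27l1 itself was at 85.4 and 88.8 FPKM and the other neighbour, Ifi27l2b, was listed at 0 at both ages. Of the 50-base words in Ifi27l2a transcripts, 0.483% occur in Ifi27l2b and in no other gene of the table. The flanking genes Ddx24 and Otub2, chosen after their values were seen, had log2 changes of 0.08 and 0.03. Without replicate values it cannot be said whether the difference in Ifi27l2a exceeded the spread between libraries.

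Beside Ifi27l2a and the Ifi200 family, 3 Ifi genes had a mean of 1 FPKM or more. All 3 were inside the 25% limit, which 7.18% of all genes passed, so the count is too small to read. Ifi30, a lysosomal reductase that prepares antigens for presentation, had 39.5 and 35.0 FPKM, and Ifi35 had 16.1 and 17.3 FPKM. Ifi47, a GTPase, was at 0.445 and 0.589 FPKM, and Ifi44 was also below 1 FPKM at both ages.

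Of the classical markers of an interferon response, those with a mean of 1 FPKM or more stayed inside the 25% limit. Over all genes 7.18% passed that limit, so little can be read from so few genes. Isg15, a ubiquitin-like modifier and the best known of them, had 11.0 and 11.4 FPKM. Isg20, an exonuclease of viral RNA, had 25.1 and 21.9 FPKM. Isg20l2, at 18.3 and 18.2 FPKM, is related to it by name and sequence but acts in ribosome assembly. The Ifit genes encode proteins that bind foreign RNA ends, and of these Ifit1 had 2.00 and 1.89 FPKM, Ifit2 0.407 and 0.293 FPKM and Ifit3 0.617 and 0.517 FPKM. Mx1, a GTPase against influenza viruses that is defective in most inbred strains, had 1.29 and 1.10 FPKM, and Mx2 had 0.222 and 0.270 FPKM.

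Oas enzymes make the short adenylate chains that activate the RNA-degrading enzyme RNase L. The 2 highest of the 12 were the Oas-like genes, Oasl1 with 18.4 and 17.9 FPKM and Oasl2 with 9.08 and 8.37 FPKM. Oasl1 is known as a brake on Irf7 translation. The true Oas genes, in a cluster of 10 on chromosome 5 from 120730333 to 120921648, were all below 2 FPKM. Oas1b had 1.72 and 1.77 FPKM, and Oas2 had one of the 5 largest rises of any member, from 0.930 to 1.28 FPKM (log2 change 0.24). The split between Oas1a and Oas1g is uncertain, because 57.6% of the 50-base words of Oas1a occur in Oas1g.

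Most of the GTPases that attack the vacuoles of intracellular microbes were low, with Irgm1 the highest. Of 11 guanylate-binding protein genes, 1 reached a mean of 1 FPKM, namely Gbp2, with 2.29 and 1.91 FPKM. Gbp8 had one of the 5 largest falls, from 0.889 to 0.596 FPKM (log2 change -0.24). It shares 18.1% of its words with other genes, and for Gbp10 the share was 76.2%, so single values of the chromosome 5 cluster are uncertain. Irgm1, a regulator of the immunity-related GTPases, had 7.13 and 6.49 FPKM and Irgm2 had 1.43 and 1.33 FPKM. Iigp1, an effector of the same family, was at 0.0812 and 0.0393 FPKM.

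Apart from Ifitm2, the genes with an ISRE core before the start were mostly weak. Over the 20 genes with a match, the median level was 1.43 and 1.31 FPKM. Over the 37 genes without one, it was 12.5 and 13.6 FPKM. The classes of genes differed as well. Those with a match were mostly effectors of the Gbp, Oas, Ifit and Irgm families. Those without one included all receptor chains and most of the STAT and IRF factors searched. Whether the level differs with the ISRE core within a class of genes was not tested. Of the 20, 11 had a mean of 1 FPKM or more, and their log2 changes ran from -0.27 to 0.05. A GAS core stood before 9 genes with such a mean, some of them counted among the 11 as well. The log2 changes of these 9 ran from -0.32 to -0.04. The lower value was at 6 months for 10 of the 11 and all of the 9, against 53.7% of all genes. Without an ISRE core it was so for 17 of 27 genes with such a mean, and without a GAS core for 18 of 29. These counts overlap, depend on the scale factor between the ages and were not tested. Of the 11 and the 9, 0 were past the 25% limit, against 7.18% of all genes, counts too small to read. As a plain FPKM ratio, Ifnar2, with a GAS core before its start, was past 25%. Ifi27l2a was not among the genes searched.

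The rest of the pathway was described with lists that held no member. Of 23 interferon ligand names, 19 were in the table, and 13 of these were listed at 0 at both ages. The highest value of any ligand was 0.0610 FPKM at 6 months, for Ifng. Receptors and kinases outside the rule were well above this: all 6 had a mean of 1 FPKM or more, and Jak1, the kinase shared by the interferon receptors, had 28.3 and 29.0 FPKM. Among 13 negative regulators, 13 RNA and DNA sensors and 34 further interferon-stimulated genes with a mean of 1 FPKM or more, 0 were past 1.5-fold in either direction, against 2.77% of all genes. Over all pathway lists, 3 of 66 genes were past the 25% limit on the FPKM + 1 scale, no larger a share than the 7.18% of all genes. These are named here after their values were seen. Socs1, a feedback inhibitor of Janus kinases, went from 4.34 to 2.99 FPKM, and Usp18, which strips Isg15 from proteins, went from 1.88 to 2.68 FPKM. Ly6e, a surface protein of many epithelia, went from 245 to 187 FPKM. As plain FPKM ratios, Samd9l, Znfx1, Rtp4 and Zbp1 were past 25% as well, against 10.6% of all genes. The medians of the lists were -0.05 for receptors and kinases, -0.07 for negative regulators, 0.02 for sensors and -0.01 for the other interferon-stimulated genes.

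**Figure D4:**
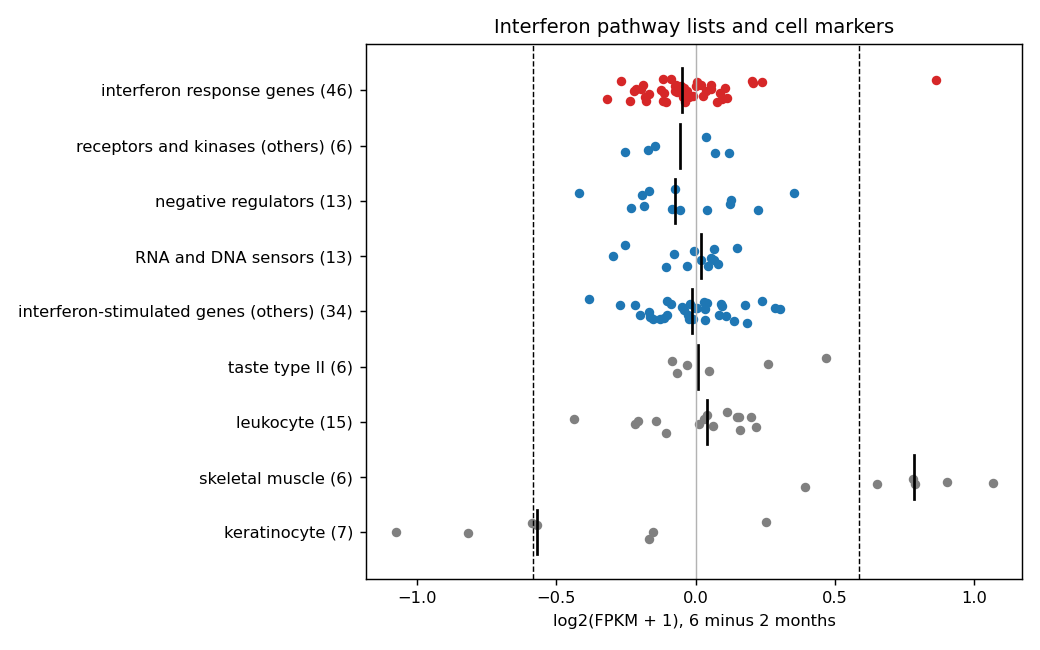
Difference of log2(FPKM + 1), 6 minus 2 months, of single genes with a mean of 1 FPKM or more and above 0 at both ages (points, number in parentheses) and the median of each list (bar), for interferon response genes (red), other lists of the pathway (blue) and cell markers (grey). Dashed lines mark 1.5-fold. The pathway lists lie between the lines except for Ifi27l2a, while most skeletal muscle markers lie to the right of them.

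Markers of other cells were set beside these values, because interferon response genes are expressed by leukocytes and endothelium as well as by epithelium. Taste cell markers ranged from Gnat3, the taste G protein, at 84.7 and 79.9 FPKM down to Slc1a3 at 0.710 and 0.988 FPKM. The share of taste cells in the pools was not measured. Of 25 leukocyte markers in the table, 0 were listed at 0 and 15 had a mean of 1 FPKM or more. Of these 15, 0 were past 1.5-fold, against 2.77% of all genes, a count too small to read. The leukocyte markers summed to 672 and 627 FPKM. Ptprc, the common leukocyte antigen CD45, had 1.54 and 1.65 FPKM. The 8 endothelial markers summed to 6.72 and 6.12 FPKM, and none was listed at 0. Only 2 of them had a mean of 1 FPKM or more, Vwf with 3.94 and 3.34 FPKM and Tek with 1.57 and 1.55 FPKM. The other 6 were weaker, among them Pecam1 with 0.331 and 0.295 FPKM and Cdh5 with 0.0323 and 0.0951 FPKM. Keratins of the basal epithelium were far above any member, with Krt5 at 2180 and 1962 FPKM and Krt14 at 1287 and 1533 FPKM. The larger differences were in other lists. Skeletal muscle markers summed to 13.6 and 26.9 FPKM. Of the 6 expressed ones, 5 were higher by at least 1.5-fold, against 1.05% of all genes. Of 8 expressed keratinocyte markers, 4 were lower by at least 1.5-fold, against 1.72% of all genes. Among the 4 was Krt4, which was listed at 0 at 6 months. The 7 fibroblast markers summed to 45.2 and 30.9 FPKM, of which Dcn made up 42.0 and 27.3 FPKM. The 7 salivary gland markers summed to 136 and 56.4 FPKM, with Lipf at 83.7 and 14.7 FPKM. The part of these cells in the value of Ifi27l2a was not tested. In pooled cells, fewer cells of a type and less RNA per cell cannot be told apart.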

How the data were processed

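Reads were aligned by the authors with TopHat2 2.0.7 to the mouse build GRCm38 with RefSeq gene models. They estimated FPKM with Cufflinks 2.1.1 and compared the ages with Cuffdiff, per the labels and the study's methods. The library normalization is not given in the sources used here. The deposited table holds 1 FPKM value per age, made by the authors from 3 libraries, and an unadjusted p-value of the authors' own comparison, which was not used. Columns were assigned to ages by the group letter in the sample titles, and no model could be fitted to 1 value per age.

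The difference of log2(FPKM + 1) was taken at 6 minus 2 months, genes whose mean reached 1 FPKM were counted past 1.5-fold, and the share over the whole table was set beside each count. Counting was tested on simulated data. Promoters and positions came from RefSeq GRCm38.p6, where 2 of the 76 genes matched by an older symbol (Gbp1 as Gbp2b, Ifi27l1 as Ifi27). Shared words are all 50-base words of a gene's GENCODE M21 transcripts, on either strand, compared with the transcripts of other genes in the table. Genes named were all receptors, STAT and IRF factors with a mean of 1 FPKM or more, the 3 highest of other roles, all members past 1.5-fold and the 5 largest rises and falls. Others were chosen after their values were seen, and 2 genes are not reported here by name. Members and lists were chosen with earlier results of these data known. Python 3.11.15, numpy 2.4.6, pandas 2.3.3 and matplotlib 3.10.9 were used.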

Additional observations from a re-analysis of the deposited data

How the results depend on the processing

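No paired analysis was possible because each age has 1 value, and for the same reason no replicate was left out in turn. Ifi27l2a was the 1 member higher by at least 1.5-fold with a pseudocount of 0.1, with no filter on low values, with a minimum mean of 5 FPKM and under each of 3 other scalings, while 0 members were higher by 2-fold. The count of members lower by 1.5-fold was 0 under all of these, each changed singly. With the pseudocount of 0.1 and no filter together, the weak genes Ifitm6 and Ifitm7 were lower by that much, at -0.78 and -0.89. With the same sum of FPKM without microRNA and small nucleolar RNA genes, which held 8.74% of the sum at 2 months and 10.9% at 6 months, the median log2 change of members became 0.029 from -0.05. With the limit at a 25% difference on the FPKM + 1 scale, 3 pathway genes outside the rule were past the limit, against 0 past 1.5-fold. Among 46 named genes, the log2 change moved by 0.05 or more in 7 with the pseudocount of 0.1 and in 0 with the upper quartile or median scaling. With the same-sum scaling, added for single genes after seeing the data, it moved by that much in 43 and changed sign in 13, while Ifi27l2a had 0.96. Leaving out Irf2bp1, Irf2bp2, Irf2bpl and Isg20l2, chosen after seeing the data, left the counts at 1 and 0 and the median at -0.05, as did leaving out Ifi27l2a for the median.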
